A study of Mus musculus with 14 samples.

Results

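The step from W6 to W12 is the last interval of a time course in which a MYC-tagged Sox9 transgene was kept switched on in EpdSCs, the stem cells that renew the epidermis between hair follicles. It was described here by setting 2 W12 libraries against 2 W6 libraries, 4 of the 14 libraries in the series. All 10 libraries of the time course, from D0 to W12, entered the fit from which the errors come, and of 54332 genes listed the 13110 whose mean over them reached 1 TPM were tested. TPM is the abundance of a gene's transcripts scaled so that every library has the same sum, so the number of reads behind a value is unknown.

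The W6 mice had the genotype K14rtTA; TRE-myc-Sox9 on the CD1 strain, were male, and were sampled at P63 after 6 weeks of doxycycline (DOX). The D0, W1 and W2 libraries, labelled with the same genotype, strain and sex, came from mice at P21, P28 and P35, so a difference from D0 is also one of age. In this genotype the promoter of Krt14, a keratin gene of basal epidermis, drives the rtTA activator, which switches on the transgene when DOX is given. W12 libraries carry the same genotype, strain and sex labels but came from grafts. According to the methods, epidermis of newborn back skin of these mice was grafted onto immunocompromised Nude female hosts and left to heal before DOX was given for 12 weeks. Mice could not be kept beyond W6, so W12 cells alone came from grafts. Time on DOX, age, grafting, healing and the host cannot be told apart in this comparison, and no grafted library without DOX, or at W6, was analysed here. All cells were sorted from skin as CD31-, CD45-, CD117- and CD140a-, CD49f high, CD34- and Ly6A high, and a low-input kit was used to amplify their RNA. The labels call the 2 libraries of a timepoint biological replicates. No source says whether each W12 library was 1 graft or several.

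As background, SOX9 is a transcription factor of the outer root sheath and of hair follicle stem cells (HFSCs), where it keeps follicle identity, and it is absent from normal EpdSCs. Sustained SOX9 is a feature of basal cell carcinoma, a tumour driven by Hedgehog signalling. Epidermal cells that are wounded or inflamed switch on keratins such as KRT6 and KRT16, barrier proteins of the late envelope family, antimicrobial proteins and cytokines, and interferon raises a shared set of antiviral and antigen-presentation genes in almost any cell.

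In limma's moderated test on log2(TPM + 1), with Benjamini-Hochberg adjustment over all genes tested, 2642 genes (20.2%) differed between W12 and W6 at an adjusted P under 0.05. Of these 873 (6.66% of genes tested) were higher and 1769 (13.5%) lower at W12. The median change over all genes was −0.16 on the log2 scale, −0.06 with quantile normalization and −0.02 with median-ratio scaling of the libraries. Rises made up 33.0% of the calls in TPM, 45.8% with quantile normalization and 55.7% with median-ratio scaling, so the balance of rises and falls depends on the scaling. Genes that passed with the same sign under all 3 scalings numbered 850 higher (6.48%) and 824 lower (6.29%). All changes below are log2 changes of TPM + 1, W12 minus W6, which understate the change of genes with low TPM. Values in 2 libraries are given as replicate 1 and then replicate 2.

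**Figure D1:**
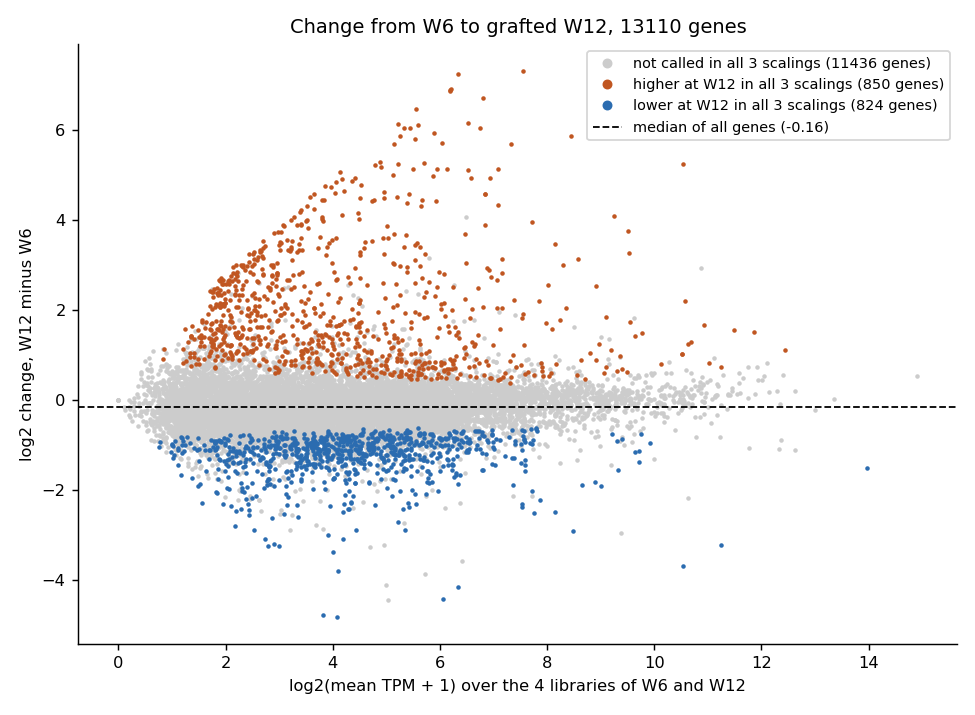
Change from W6 to W12 (log2 of TPM + 1, vertical axis) against the mean level over the 4 libraries (horizontal axis) for the 13110 genes tested, each point a gene, with genes higher (orange) or lower (blue) under all 3 scalings coloured and all others grey. The 850 higher genes reach larger changes than the 824 lower ones.

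The number of calls rests on both W12 libraries. Without W12 replicate 1 the count fell to 761 genes (470 higher and 291 lower), without W12 replicate 2 to 1285, and without W6 replicate 1 to 1600. With only the 4 libraries of W6 and W12 in the fit 887 genes differed. Pearson's r across genes, which are not independent replicates, was 0.958 between the W6 replicates, 0.982 between the W12 replicates, and 0.900 to 0.923 between a W6 and a W12 library. Of the 13110 genes, 349 passed the filter on level only through their W12 values, and 248 of these were higher at W12. Such a gene had to differ, so where it is named below it is given for its level and not as support.

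The transgene was transcribed at both timepoints and its change did not pass the threshold. MYC-SOX9 had 1108 and 859 TPM at W6 and 606 and 903 TPM at W12, and the groups overlap in range, with W6 replicate 2 below W12 replicate 2. The change was −0.40 (SE 0.32, adjusted P = 0.419, limma). At D0, before DOX, it had 89.6 and 45.6 TPM. Endogenous Sox9 had 9.88 and 13.6 TPM at W6 and 5.31 and 7.91 TPM at W12 (−0.75, SE 0.26, adjusted P = 0.0729). Of 9 Sox genes tested, the transgene included, 3 fell and 1 was higher (33.3% and 11.1%, against 13.5% and 6.66% of all genes). Sox13, an SRY-related factor, fell from 10.6 and 8.30 TPM to 1.82 and 3.26 TPM, Sox7 from 36.6 and 25 to 9.79 and 13.0 TPM, and Sox21 from 54.4 and 46.2 to 26.7 and 28.6 TPM. In each of the 3 both W12 libraries were below both W6 libraries. Sox18, a factor of blood vessel cells, had 0.122 and 0.526 TPM at W6 and 4.06 and 12.3 TPM at W12, and it passed the filter only through W12. Without W6 replicate 2, 2 Sox genes were higher.

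The libraries were next checked against markers of their own and of other cells. Krt14 and Krt5, the keratin pair that defines basal epidermal cells, stood at 24719 and 25508 TPM and at 9411 and 8227 TPM at W6, and at 35371 and 37666 TPM and 7833 and 7343 TPM at W12. Neither change passed the threshold (adjusted P = 0.084 and 0.415, limma), and both transcripts were abundant at both timepoints. Both W12 libraries were above both W6 libraries for Krt14 and below them for Krt5. Reads of Krt14 can be shared with the similar Krt16 and Krt17.

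Blood vessel transcripts were present at W12. The summed level of 12 endothelial and pericyte markers was 5.07 and 7.02 TPM at W6 and 184 and 460 TPM at W12, against 2.17 to 3.70 TPM in the 6 libraries from D0 to W2. Pecam1, which encodes CD31, an antigen the sort gated against, had 0.517 and 1.14 TPM at W6 and 26.1 and 59.8 TPM at W12. Plvap, a protein of vessel wall openings, had 1.18 and 0.263 TPM at W6 and 57.4 and 174 TPM at W12. All 8 endothelial markers tested were higher in both W12 libraries than in both W6 libraries and higher in W12 replicate 2 than in replicate 1, with a median difference between the W12 replicates of 1.09 on the log2 scale. Of these 8, 7 passed the filter only through W12. The pericyte marker Rgs5 was at 0.0295 and 0.0342 TPM in the W12 libraries.

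Red cell transcripts and MHC class II genes were also higher at W12. The sum of 5 erythroid markers was 18.1 and 12.5 TPM at W6 and 432 and 463 TPM at W12, most of it from haemoglobin genes such as Hba-a2 (7.17 and 6.34 TPM against 223 and 248 TPM), whose reads can be shared with Hba-a1. MHC class II genes, which present antigen on immune cells and, under interferon, on other cells, summed to 25 and 10.3 TPM at W6 and 277 and 292 TPM at W12. Both sums were close between the 2 W12 libraries. The 22 immune markers, with the class II genes among them, summed to 34.3 and 20.7 TPM at W6 and 469 and 744 TPM at W12, and of 9 tested 6 were higher (against 6.66% of all genes), or 5 of the 7 that did not need W12 to pass the filter. The 6 were Cd74, H2-Aa, H2-Ab1, H2-Eb1, Cd14 and Coro1a, named for the count after their values were seen. Coro1a, a leukocyte actin regulator, had 0.761 and 0.569 TPM at W6 and 1.78 and 2.10 TPM at W12. Of the 22, 12 were below 1 TPM in both W12 libraries, among them Ptprc, which encodes CD45 (0.0184 and 0.327 TPM), Cd3e of T cells (0.0317 and 0.0370 TPM), Cd207 of Langerhans cells, and Itgam, Adgre1 and Csf1r of myeloid cells. Cd14, a receptor for bacterial lipopolysaccharide, had 3.94 and 5.29 TPM at W6 and 185 and 443 TPM at W12. Fibroblast markers summed to 15.2 and 75.1 TPM at W6 and 45.7 and 59.2 TPM at W12, so the W12 values lay within a W6 range that replicate 2 sets. Of 4 tested, 1 (25%, against 6.66% of all genes) was higher at W12, Thy1, with 1.67 and 5.88 TPM against 17 and 15.1 TPM. With only the 4 libraries of W6 and W12 in the fit none was higher. The median change of 0.51 became −0.36 without W6 replicate 1 and 1.80 without W6 replicate 2. Melanocyte and Schwann cell marker sums overlapped too, with 6.50 and 22.6 TPM against 16.3 and 16.9 TPM. Fabp4, a fatty acid carrier of fat and vessel cells, passed the filter only through W12. It had 1.70 and 2.63 TPM at W6 and 166 and 256 TPM at W12 and made up most of the muscle and fat sum at W12, while 10 of those 12 markers were below 1 TPM in both W12 libraries. The part of these other cells in the results below was not tested, and in bulk RNA fewer cells of a type and less RNA per cell cannot be told apart.

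**Figure D2:**
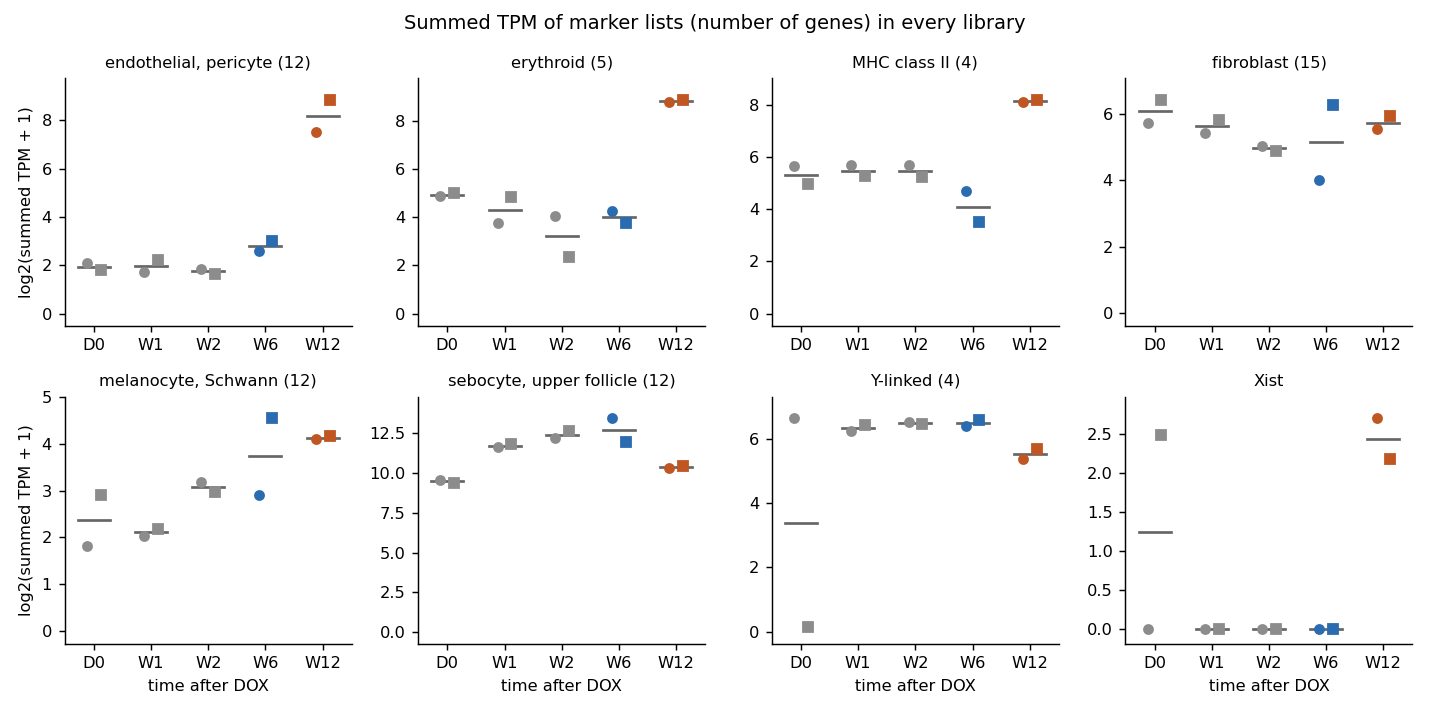
Summed TPM of marker genes in each of the 10 libraries (1 point per library, bars the mean, 5 timepoints on the horizontal axis, log2 of the summed TPM + 1 on the vertical axis) for endothelial, erythroid, MHC class II, fibroblast, melanocyte and sebocyte markers, 4 Y-linked genes and Xist. Endothelial, erythroid and MHC class II sums are highest in the 2 W12 libraries, and the W12 fibroblast and melanocyte sums lie within the range of the W6 libraries.

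Sex-linked transcripts also set libraries apart. Xist, transcribed in female cells, was at 0.00168 and 0.00665 TPM at W6 and at 5.51 and 3.5 TPM at W12, and the sum of 4 Y-linked genes was 84.1 and 97.0 TPM at W6 and 41.1 and 51.1 TPM at W12. The W12 libraries, labelled male, thus hold both, and their hosts were female. The part of host cells, or of donor skin of both sexes, in the results was not tested. D0 replicate 2 went against its label, with 4.61 TPM of Xist and a Y-linked sum of 0.0920 TPM. This library is not in either group compared, but it enters the shared estimate of spread, the filter on level and the scalings, and with both D0 libraries left out of the fit 3221 genes differed, 990 higher and 2231 lower. The 4 Y-linked genes were all lower in that fit, and none with D0 included.

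Most of the wound and barrier alarm genes tested rose at W12. Of 32 listed keratins, envelope proteins, antimicrobial proteins and cytokines, 25 were tested and 19 were higher at W12, all 19 under all 3 scalings, against 6.66% of all genes, with 1 lower. The median change of the list was 2.49, against −0.16 over all genes. As 5 of the 25 passed the filter only through W12, the count among the other 20 was 14 higher. Leaving out W12 replicate 1 or W12 replicate 2 gave 13 higher.

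Among the keratins, which form the intermediate filaments of stressed epidermis, the family did not move together. Krt6b rose from 169 and 113 TPM to 1342 and 1330 TPM (change 3.26, SE 0.43, adjusted P = 0.00199) and Krt16, the partner of KRT6, from 668 and 432 TPM to 2402 and 2578 TPM (2.21, SE 0.31, adjusted P = 0.00239). The W12 values of both genes were close to each other and well above both W6 values. Krt6a, already at 4424 and 2603 TPM at W6, had 4564 and 5380 TPM at W12 (0.55, SE 0.47, adjusted P = 0.46). Krt17, the only member that fell, went from 11556 and 6011 TPM to 3309 and 4545 TPM (−1.10, SE 0.30, adjusted P = 0.0358), a call not held under all 3 scalings, nor without W6 replicate 1, W12 replicate 1 or W12 replicate 2. Krt6a and Krt6b, and Krt14, Krt16 and Krt17, are similar in sequence, so reads may be split between them.

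Late envelope genes encode proteins that are crosslinked into the cornified layer. Lce3d and Lce3b had the largest changes of all genes named. Lce3d (chromosome 3, 92957390 to 92958505, GRCm38) had 2.86 and 0.440 TPM at W6 and 397 and 350 TPM at W12, a change of 7.31. Lce3b, in the same cluster, was listed at 0.115 and 0 TPM at W6 and at 162 and 157 TPM at W12, a change of 7.25. Lce3a followed with 0.877 and 0.383 TPM against 64.1 and 50.9 TPM. All 3 were listed at 0 in both D0 libraries and passed the filter only through W12. Sprr2a2, of the small proline-rich family, rose from 38.3 and 147 TPM to 3174 and 2596 TPM (5.24, SE 0.49, adjusted P = 0.000287), so both W12 libraries stood far above W6 replicate 2, the higher W6 library. Members of both families share sequence, and their single values are uncertain for that reason.

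Among antimicrobial genes, Slpi and Defb14 of the list rose, whereas Defb6, a beta-defensin gene outside it, was lower at W12. Slpi, a secreted protease inhibitor with antimicrobial activity, rose from 141 and 66.9 TPM to 1126 and 1566 TPM (3.76, SE 0.52, adjusted P = 0.00236). Defb14, a beta-defensin, rose from 13.6 and 10.1 TPM to 169 and 158 TPM (3.69, SE 0.31, adjusted P = 0.000168). In both genes the W6 and W12 ranges lay far apart, and both were near or below 1 TPM at D0, with a highest D0 value of 1.83 TPM for Defb14. S100a8 and S100a9, which form calprotectin and were named after their values were seen, had 89.9 and 52.2 TPM and 65.2 and 31.8 TPM at W6, and 536 and 576 TPM and 525 and 503 TPM at W12.

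Cytokine transcripts that were almost absent at W6 were present in both W12 libraries. Il24, a cytokine of the interleukin-10 family made by wounded keratinocytes (chromosome 1, 130882074 to 130887454), had 1.43 and 1.54 TPM at W6 and 98.2 and 75.7 TPM at W12. Il6, a driver of acute-phase responses, had 0.409 and 0.278 TPM at W6 and 70.6 and 118 TPM at W12. Csf3, the granulocyte growth factor, was listed at 0.135 and 0 TPM at W6 and at 73.9 and 214 TPM at W12. Il6 and Csf3 were higher in W12 replicate 2 and Il24 in replicate 1, and the cells these transcripts came from were not tested. All 3 passed the filter only through W12. The proliferin genes encode hormones related to prolactin. Prl2c3 rose from 48.3 and 89.5 TPM to 977 and 1307 TPM (4.08, SE 0.31, adjusted P = 9.48e-05) and Prl2c2 from 7.73 and 21 TPM to 149 and 278 TPM. These were 2 of 3 members tested (against 6.66% of all genes that were higher), and their near-identical sequences can share reads.

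**Figure D3:**
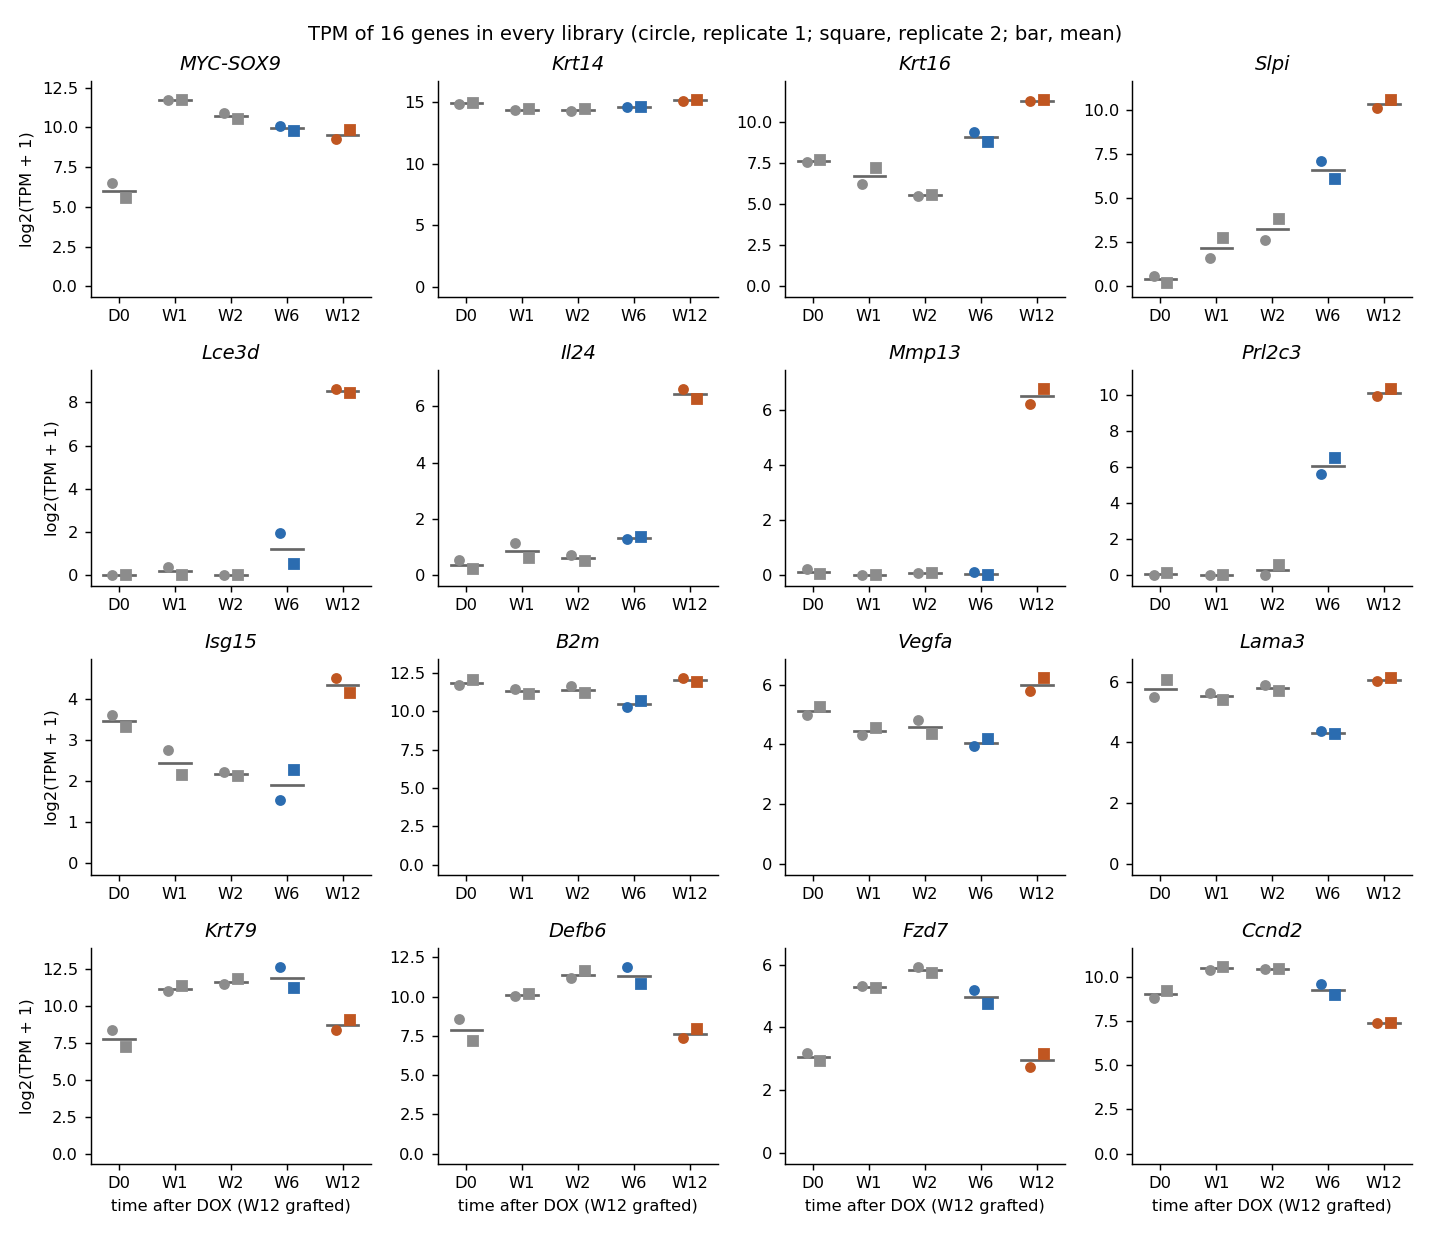
log2(TPM + 1) of 16 genes (vertical axes) in each of the 10 libraries at the 5 timepoints (horizontal axes), 1 panel per gene and 1 point per library. Circles are replicate 1, squares replicate 2 and bars the mean. Krt16, Il24, Mmp13 and Isg15 have both W12 libraries above both W6 libraries, Krt79, Defb6, Fzd7 and Ccnd2 have both below, and for MYC-SOX9 the timepoints overlap.

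Most interferon-stimulated genes tested rose. Of 42 listed, 28 were tested, 21 were higher at W12 under all 3 scalings and none was lower, against 6.48% of all genes that were higher by the same rule. The median change was 2.02. Among the 25 tested that did not need W12 to pass the filter, 18 were higher, and the count was 16 without W12 replicate 1 and 19 without W12 replicate 2. The difference between the W12 replicates had a median of 0.01 over the list, against 0.08 over all genes tested, a comparison with no test.

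Irf7, a master regulator of type I interferon, rose from 1.71 and 1.70 TPM to 8.29 and 9.60 TPM. Isg15, a ubiquitin-like antiviral modifier, rose from 1.92 and 3.84 TPM to 21.7 and 16.5 TPM (2.41, SE 0.30, adjusted P = 0.00151). In both the W12 libraries lay several times above the W6 libraries. At D0 Irf7 had 8.63 and 11.4 TPM and Isg15 11.1 and 8.92 TPM, so the W6 libraries were below D0 as well as below W12. Guanylate-binding protein gene Gbp2, a defence gene against intracellular microbes, rose from 0.636 and 1.39 TPM to 31.4 and 35 TPM (4.11, SE 0.36, adjusted P = 0.000183). The chemokine genes Cxcl9 and Cxcl10, which attract T cells, rose from 0.496 and 0.106 TPM to 26.3 and 34.9 TPM and from 2.54 and 0.536 TPM to 45.6 and 53.3 TPM. Cxcl10 had 42.2 and 5.30 TPM at D0, a wide spread between replicates.

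Promoters of 3 of these genes are shown because they hold the interferon-stimulated response element, the sequence that interferon-activated transcription factors bind. Each window is the 250 bases before the RefSeq start of the gene on GRCm38.p6, 5′ to 3′ on the gene's strand, with matches on either strand to GAAA, any 2 bases and GAAA again in capitals. They lie at chr4:156200819-156201068 on the minus strand for Isg15, where 3 overlapping matches begin 78 to 66 bases before the start, at chr3:142620413-142620662 on the plus strand for Gbp2, 59 bases before, and at chr5:92348890-92349139 on the minus strand for Cxcl10, 213 bases before.
Isg15: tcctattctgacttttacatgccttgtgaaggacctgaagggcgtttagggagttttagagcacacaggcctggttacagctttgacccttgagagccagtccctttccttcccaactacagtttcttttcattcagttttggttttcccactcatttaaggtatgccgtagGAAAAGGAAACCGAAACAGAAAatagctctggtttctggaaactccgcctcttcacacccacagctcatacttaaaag
Gbp2: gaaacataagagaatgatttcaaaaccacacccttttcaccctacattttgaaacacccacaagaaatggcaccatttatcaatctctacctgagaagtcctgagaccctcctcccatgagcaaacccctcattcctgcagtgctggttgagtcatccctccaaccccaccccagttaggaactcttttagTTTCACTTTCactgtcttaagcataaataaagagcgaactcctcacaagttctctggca
Cxcl10: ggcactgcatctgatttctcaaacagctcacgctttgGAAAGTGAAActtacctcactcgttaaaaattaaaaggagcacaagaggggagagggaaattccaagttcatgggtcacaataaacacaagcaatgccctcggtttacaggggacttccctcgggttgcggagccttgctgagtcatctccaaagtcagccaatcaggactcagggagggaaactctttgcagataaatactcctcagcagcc
For the motif counts here and below, a window is a gene's whole RefSeq promoter sequence, not cut to the 250 bases printed. All windows of a gene were searched, 32851 for 27025 genes. Genes that passed the filter only through W12 were not left out. The interferon-stimulated response element was found for 8 of the 16 interferon genes that were higher and had a window (50.0%). It was found for 11 of the 21 tested that had one (52.4%). Over all 27025 RefSeq genes it was found in 3.99%, over the genes tested in 3.57%, over the 606 genes higher under all 3 scalings in 6.60%, and over the 608 lower in 2.63%. A match is a description of the sequence, not a binding site or a cause, and 8 motifs were searched in all.

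Antigen presentation by MHC class I, which interferon also raises, rose in part. Of 17 genes tested, 6 were higher (35.3%, against 6.66% of all genes) and none lower, with a median change of 0.52. B2m, the invariant chain, rose from 1247 and 1645 TPM to 4623 and 3899 TPM (1.57, SE 0.23, adjusted P = 0.00299), with 3362 and 4113 TPM at D0. H2-K1, a classical heavy chain, rose from 862 and 1014 TPM to 2096 and 2346 TPM (1.24, adjusted P = 0.00718, limma), whereas H2-D1 had 1203 and 1187 TPM at W6 and 1775 and 2040 TPM at W12 (0.67, SE 0.39, adjusted P = 0.259). In all 3 genes both W12 libraries were above both W6 libraries. The list count was 2 without W12 replicate 1, 1 without W12 replicate 2 and 4 without W6 replicate 1, and heavy-chain genes share sequence.

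Part of the matrix protease and inhibitor genes rose. Of 31 listed, 26 were tested, 13 were higher (12 under all 3 scalings, against 6.48% of all genes) and none lower, with a median change of 0.76. Among the 21 that did not need W12 to pass the filter, 8 were higher. Those with the largest changes, Mmp13, Mmp10 and Mmp3, encode secreted matrix metalloproteinases, enzymes that cut collagen and other matrix proteins. Mmp13, a collagenase, was listed at 0.0658 and 0 TPM at W6 and had 74.3 and 109 TPM at W12, and Mmp10 was listed at 0.0190 and 0 TPM at W6 and had 56.5 and 87.9 TPM at W12. Mmp3, stromelysin 1, had 0.296 and 1.76 TPM at W6, 61.5 and 80.9 TPM at W12, and 8.59 and 7.63 TPM at D0 (5.24, SE 0.33, adjusted P = 3.53e-05). All 3 stood higher in W12 replicate 2 than in replicate 1, and Mmp13 and Mmp10 passed the filter only through W12. Mmp9, a gelatinase, rose from 3.56 and 2.23 TPM to 36.5 and 50.8 TPM (3.52, SE 0.25, adjusted P = 7.14e-05). Timp1, an inhibitor of these enzymes, rose from 5.21 and 4.74 TPM to 76.1 and 74.4 TPM (3.67, SE 0.19, adjusted P = 1.14e-05). In both genes the W12 values were above 30 TPM and the W6 values below 6 TPM.

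Promoters of Mmp3, Mmp10 and Mmp13, which lie in 1 cluster on chromosome 9, are shown because each holds an AP-1 motif close to its start, TGANTCA, the sequence that FOS and JUN dimers bind. The windows, again 250 bases on GRCm38.p6, lie on the plus strand at chr9:7445572-7445821 for Mmp3, chr9:7502092-7502341 for Mmp10 and chr9:7272264-7272513 for Mmp13, and the match begins 46, 63 and 35 bases before the start, in capitals.
Mmp3: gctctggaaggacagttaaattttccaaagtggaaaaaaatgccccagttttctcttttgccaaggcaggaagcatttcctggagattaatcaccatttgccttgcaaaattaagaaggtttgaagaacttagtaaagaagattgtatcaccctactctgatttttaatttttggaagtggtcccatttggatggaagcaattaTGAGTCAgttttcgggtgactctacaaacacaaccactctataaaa
Mmp10: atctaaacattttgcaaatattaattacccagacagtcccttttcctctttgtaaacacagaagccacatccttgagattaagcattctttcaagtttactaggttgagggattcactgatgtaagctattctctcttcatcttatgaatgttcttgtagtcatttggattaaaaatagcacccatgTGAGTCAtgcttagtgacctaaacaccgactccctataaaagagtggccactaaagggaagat
Mmp13: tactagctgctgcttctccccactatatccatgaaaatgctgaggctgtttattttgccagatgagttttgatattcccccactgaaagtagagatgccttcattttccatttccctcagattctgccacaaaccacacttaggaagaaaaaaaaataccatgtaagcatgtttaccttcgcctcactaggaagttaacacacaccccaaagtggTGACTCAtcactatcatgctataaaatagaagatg
Of the higher protease genes with a window, 5 of 9 (55.6%) held the motif. Mmp10 and Mmp13, which passed the filter only through W12, are among them, and no count without Mmp10 and Mmp13 was made. Of the protease genes tested with a window, 5 of 18 (27.8%) held the motif. The share was 8.97% of all RefSeq genes, 6.37% of the genes tested, 14.0% of the 606 higher and 7.07% of the 608 lower. Of 14 RUNX and AP-1 factor genes tested, 1 was higher and 1 lower (Batf and Runx1), shares near or below those of all genes, and Batf passed the filter only through W12. With a length and GC correction 2 were higher and none lower, and the median went from −0.29 to 0.22. Batf did not pass without W12 replicate 2, nor Runx1 without W12 replicate 1, and 2 genes were higher without W6 replicate 1.

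Part of the basement membrane and matrix genes rose. Of 32 tested, 9 were higher (28.1%, against 6.66% of all genes), all 9 under all 3 scalings, with a median change of 0.25. Among the 31 that did not need W12 to pass the filter, 8 were higher. The 3 lower (9.38%, against 13.5% of all genes) are below the background, and none held under all 3 scalings. With a length and GC correction 11 were higher and none lower. Lama3 and Lamb3 encode laminin chains of the adhesion layer under basal cells. Lama3 rose from 19.8 and 18.4 TPM to 63.7 and 69.1 TPM (1.75, SE 0.20, adjusted P = 0.00079). Lamb3 had 124 and 102 TPM at W6 and 98.9 and 124 TPM at W12 (−0.02, SE 0.25, adjusted P = 0.972), so the timepoints overlapped. The collagen IV gene Col4a1, also made by vessel cells, had 0.380 and 1.41 TPM at W6 and 4.31 and 13.5 TPM at W12. The part of other cells in this rise was not tested. The number of higher matrix genes was 4 without W12 replicate 1 and 2 without W12 replicate 2, and the 3 lower genes (Col7a1, Fbln1 and Itgb5, named for the count after their values were seen) numbered 0 without either of those libraries or without W6 replicate 1, and 5 without W6 replicate 2.

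Part of the list of hypoxia and glycolysis genes rose. Of 27 tested, 11 were higher under all 3 scalings (against 6.48% of all genes), 16 did not pass and none was lower, with a median change of 0.43. Bnip3, a mitophagy receptor induced by low oxygen, rose from 7.97 and 18.1 TPM to 84.0 and 72.3 TPM (2.59, SE 0.35, adjusted P = 0.00212). Vegfa, the growth factor of blood vessels, rose from 14.2 and 17.2 TPM to 53.4 and 73.8 TPM (1.94, SE 0.23, adjusted P = 0.00107), and Ndrg1 from 14.4 and 16.8 TPM to 67.6 and 112 TPM. For each of the 3 genes the D0 libraries (62.4 and 92.3 TPM of Bnip3, 30.7 and 37.3 TPM of Vegfa, 58.0 and 118 TPM of Ndrg1) were above both W6 libraries. Ldha, the enzyme that makes lactate, had 1700 and 1708 TPM at W6 and 2017 and 2274 TPM at W12 (0.33, SE 0.16, adjusted P = 0.195), and the glucose transporter gene Slc2a1 overlapped between the timepoints with 291 and 181 TPM against 245 and 282 TPM. The count of higher genes was 5 without W12 replicate 1, 6 without W12 replicate 2 and 7 without W6 replicate 1.

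The Bnip3 promoter is shown as the window of the largest rise in this list, with the core of the hypoxia response element, ACGTG, in capitals. It lies on the minus strand at chr7:138909507-138909756 and holds the core on both strands as CACGTG, 108 and 107 bases before the start.
Bnip3: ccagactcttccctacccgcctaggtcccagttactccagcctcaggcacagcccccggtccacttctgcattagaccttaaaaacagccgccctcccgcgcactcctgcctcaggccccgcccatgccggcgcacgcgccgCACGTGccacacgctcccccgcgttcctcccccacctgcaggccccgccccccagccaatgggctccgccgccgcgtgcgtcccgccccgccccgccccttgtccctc
The core was found in 8 of the 10 higher genes of this list with a window (80.0%) and in 18 of all 25 tested with one (72.0%). It was found in 29.4% of the tested genes, 26.9% of the higher and 27.5% of the lower ones.

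Simple-epithelial keratins, which stratified epidermis normally lacks, were higher at W12 from low levels. Of 6 tested, 4 were higher and 1 lower under all 3 scalings (against 6.48% and 6.29% of all genes), and of the 4 that did not need W12 to pass the filter 2 were higher. Krt8 had 5.84 and 1.15 TPM at W6 and 46.3 and 145 TPM at W12 (4.44, SE 0.69, adjusted P = 0.00419), its partner Krt18 had 3.80 and 0.442 TPM against 32.9 and 105 TPM, and Krt19 had 2.83 and 0.258 TPM against 44.4 and 156 TPM. In each of these genes W12 replicate 2 was the highest library and W6 replicate 2 the lowest of the 4, and the median difference between the W12 replicates over the list was 1.5. Krt18 and Krt19 passed the filter only through W12. Krt80, the lower member, also expressed in stratified epithelia, fell from 52.5 and 68.7 TPM to 15.4 and 12.6 TPM and was named for the count after its values were seen. Vim, the filament of mesenchymal and vessel cells, rose from 1.57 and 4.14 TPM to 53.5 and 104 TPM (4.38, SE 0.43, adjusted P = 0.000353). Krt8, Krt18, Krt19 and Vim are also expressed outside keratinocytes, and the part of other cells in these rises was not tested.

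Epithelial cadherin genes moved the other way. Cdh3, P-cadherin of basal cells, fell from 38 and 36.9 TPM to 14.6 and 20.8 TPM (−1.06, SE 0.20, adjusted P = 0.00962). Cdh1, E-cadherin, went from 229 and 145 TPM to 77.3 and 89.1 TPM (−1.12, SE 0.24, adjusted P = 0.0136), a call not held under all 3 scalings. In both the W12 libraries were below the W6 libraries. Over 11 cadherin and epithelial-mesenchymal transition genes tested, 1 was higher and 3 lower (27.3%, against 13.5% of all genes), but with median-ratio scaling 1 and 1. Without W12 replicate 1 none of the 3 passed, without W6 replicate 1 only 1 did.

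**Figure D4:**
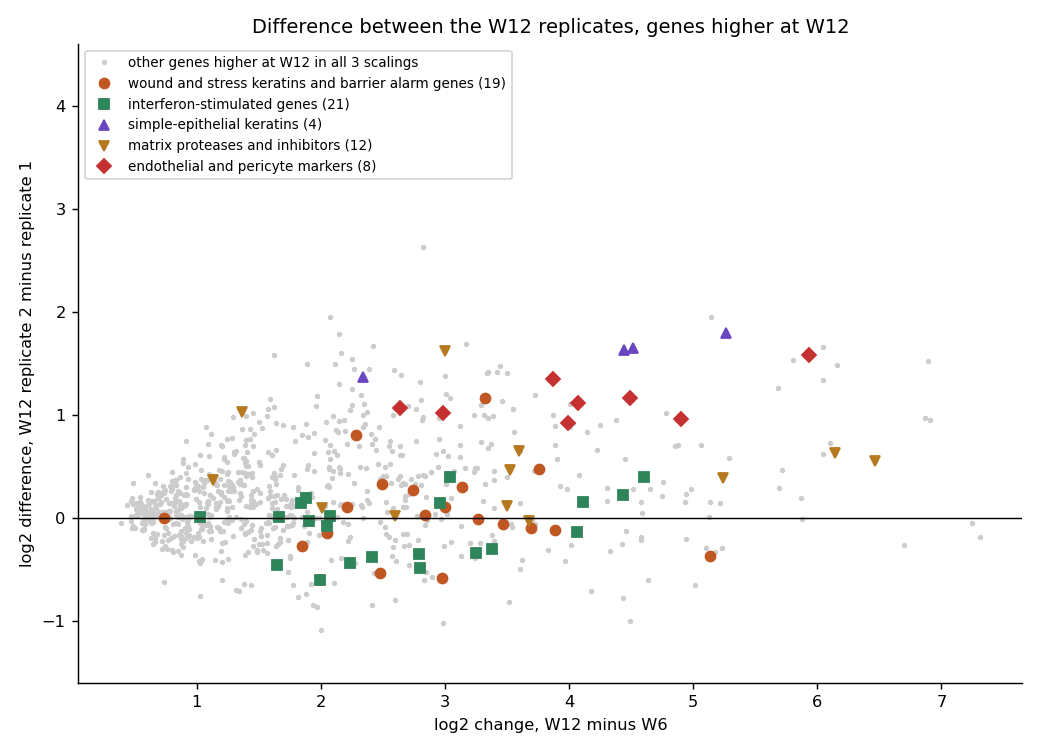
For the genes higher at W12 under all 3 scalings, the log2 difference of W12 replicate 2 from replicate 1 (vertical axis) against the change from W6 to W12 (horizontal axis, log2 of TPM + 1), each point a gene, with members of named lists coloured. The 8 endothelial markers and 4 simple-epithelial keratins all lie above 0, and the 21 interferon and 19 wound genes lie on both sides of it.

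The 2 W12 libraries differed in a subset of the higher genes. Of the 850 genes higher under all 3 scalings, 70 were higher in W12 replicate 2 than in replicate 1 by over 1 on the log2 scale and 2 were lower by as much, against 157 and 123 of the 13110 genes tested. Over all genes tested the median difference was 0.08. List medians were 0.41 for proteases, 0.03 for wound and alarm genes and 0.01 for interferon genes.

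Many HFSC and outer root sheath genes fell at W12. Of 18 tested, 11 were lower (9 under all 3 scalings, against 6.29% of all genes). The 2 higher were Tbx1 and Cd34 (11.1%, against 6.66% of all genes), both under all 3 scalings. The median change was −1.05, which became −0.91 and −0.92 under the other scalings. Krt79, a keratin of the upper follicle and its opening (chromosome 15, 101929332 to 101940324), fell from 6417 and 2375 TPM to 327 and 528 TPM (−3.23, SE 0.50, adjusted P = 0.00422) beside 330 and 147 TPM at D0. Lgr6, a receptor of upper follicle stem cells, fell from 66.8 and 30.0 TPM to 9.57 and 16.3 TPM (−1.76, SE 0.43, adjusted P = 0.0234). In both genes W6 replicate 1 was the highest of the 4 libraries and both W12 libraries were below both W6 libraries. The transcription factor genes Nfatc1, a regulator of HFSC quiescence, and Nfix fell from 46.6 and 27.7 TPM to 12.3 and 13.5 TPM (−1.41, SE 0.24, adjusted P = 0.0065) and from 263 and 310 TPM to 87.3 and 105 TPM (−1.57, SE 0.27, adjusted P = 0.00672). Lhx2 and Tcf7l1, factors of HFSC identity, did not pass the threshold, with 1.70 and 1.55 TPM against 0.974 and 1.83 TPM and 8.71 and 2.90 TPM against 1.69 and 2.90 TPM. Cd34, an HFSC surface antigen also found on vessel cells, rose from 2.66 and 5.04 TPM to 16.5 and 32.0 TPM (2.36, SE 0.35, adjusted P = 0.00351), though cells were sorted as CD34-. The count of lower genes was 5 without W12 replicate 1 and 9 to 11 without any other library, and of the 2 higher genes 1 passed without each library but W12 replicate 1.

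Upper follicle and sebocyte transcripts were lower in both W12 libraries, and their W6 level differed between replicates. The sum of 12 such markers, Krt79 among them, was 11127 and 3951 TPM at W6 and 1257 and 1402 TPM at W12, and from D0 to W2 it ranged from 669 to 6369.6 TPM. Of 8 tested, 4 were lower and 1 higher (50% and 12.5%, against 13.5% and 6.66% of all genes), 2 of the 4 under all 3 scalings, and 2 were lower without W6 replicate 1, W12 replicate 1 or W12 replicate 2. Defb6, a beta-defensin gene (chromosome 8, 19225478 to 19228209), had the largest fall of all genes named, from 3776 and 1745 TPM to 160 and 247 TPM (−3.68, SE 0.48, adjusted P = 0.00189), against 376 and 141 TPM at D0. Like Krt79, it was higher in W6 replicate 1 than in replicate 2.

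Wnt pathway genes were called in both directions, with a balance that depends on a correction for gene length and GC content. Of 29 tested, 8 were lower (27.6%, against 13.5% of all genes), 6 of them under all 3 scalings, and 2 higher (6.90%, against 6.66%), with a median of −0.28. With the length and GC correction, also with the replicate block, 4 were lower and 4 higher, and the median was −0.07. Fzd7, a Wnt receptor (chromosome 1, 59482424 to 59486955), fell from 35.8 and 25.8 TPM to 5.70 and 7.86 TPM (−2.03, SE 0.21, adjusted P = 0.000553). Tcf7, a factor that partners beta-catenin, fell from 29.2 and 19.2 TPM to 6.23 and 6.62 TPM (−1.73, SE 0.27, adjusted P = 0.00414), and Apcdd1, a Wnt inhibitor, from 91.2 and 49.9 TPM to 16.2 and 16.2 TPM. The W12 replicates of these genes lay close together and below both W6 replicates. Axin2, a general Wnt target, was at 2.54 and 4.61 TPM at W6 and 1.26 and 1.19 TPM at W12 (−1.0, SE 0.30, adjusted P = 0.0459). Wnt5a, a ligand of the non-canonical branch, rose from 1.71 and 6.10 TPM to 13.6 and 14.8 TPM (1.79, SE 0.39, adjusted P = 0.0161). Without W12 replicate 1, or without W12 replicate 2, 3 Wnt genes were lower, and 0 and 1 were higher. Without W6 replicate 2, 3 were higher.

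In the Hedgehog pathway 10 of 17 genes were tested, 3 were lower (30%, against 13.5% of all genes) and none higher. Only Sufu held under all 3 scalings, and the median of −0.65 became −0.23 with the length and GC correction, under which 2 were lower. Sufu, a brake on GLI factors, fell from 15.1 and 14.6 TPM to 4.83 and 6.63 TPM (−1.25, SE 0.21, adjusted P = 0.0056). The co-receptor gene Boc (−1.27, adjusted P = 0.0189, limma) and the signal transducer gene Smo (−0.75, adjusted P = 0.0302) were lower in TPM but not under all 3 scalings. Of the targets that read out pathway activity, Ptch1 had 2.15 and 2.63 TPM at W6 and 0.844 and 1.28 TPM at W12 (−0.72, SE 0.25, adjusted P = 0.0773), and Gli1, too low to be tested, had 0.552 and 1.36 TPM against 0.503 and 0.376 TPM. The number of lower genes was 0 without W12 replicate 1, 2 without W12 replicate 2, 1 without W6 replicate 1 and 5 without W6 replicate 2.

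Basal epidermal genes were called in both directions. Of 24 tested, 6 were lower (3 under all 3 scalings, against 6.29% of all genes) and 2 higher, with a median of −0.33. The balance turned to 4 higher and 3 lower with median-ratio scaling and with the length and GC correction, under which the median was −0.08. Krt15, a keratin of resting basal cells, had 429 and 1350 TPM at W6, 322 and 242 TPM at W12 and 11241 and 11928 TPM at D0 (−1.44, SE 0.44, adjusted P = 0.0493). Sostdc1, an inhibitor of Wnt and BMP signals, fell from 615 and 1026 TPM to 196 and 226 TPM (−1.91, SE 0.35, adjusted P = 0.0081), and Gata3, an epidermal transcription factor, from 53.1 and 94.2 TPM to 27.2 and 27.8 TPM. In these 3 genes the W12 libraries lay below both W6 libraries and W6 replicate 2 was the highest of the 4. Igfbp3, a binding protein of insulin-like growth factors, rose from 1.32 and 21.8 TPM to 81.2 and 76.8 TPM (3.46, SE 0.83, adjusted P = 0.022), with 551 and 595 TPM at D0. No lower basal gene passed without W12 replicate 1, 2 did without W12 replicate 2 and 3 without W6 replicate 1. The higher genes numbered 1 without W12 replicate 1 and 0 without W12 replicate 2.

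Differentiation genes were not of one direction. Of 27 tested, 4 were higher and 7 lower (14.8% and 25.9%, against 6.66% and 13.5% of all genes), 3 and 4 under all 3 scalings, with a median of 0.21. Of the 4 higher, Lce3a passed the filter only through W12, which leaves 3 of 26. There were 4 and 4 with median-ratio scaling, 5 and 5 with quantile normalization. Krt1 and Krt10, the keratins of the suprabasal layers, overlapped between timepoints, with 524 and 1098 TPM against 1102 and 904 TPM and 568 and 966 TPM against 1041 and 700.0 TPM. Flg, the filaggrin precursor of the granular layer, fell from 38.7 and 13.1 TPM to 3.06 and 1.15 TPM (−3.00, SE 0.58, adjusted P = 0.0102), and Krt77 from 19.4 and 53.5 TPM to 8.19 and 1.21 TPM (−2.89, SE 0.66, adjusted P = 0.0189). Cnfn, a protein of the cornified envelope, rose from 170 and 32.3 TPM to 678 and 640 TPM (3.13, SE 0.64, adjusted P = 0.0127). In these 3 genes the groups were apart although the W6 replicates differed several-fold. Without W12 replicate 1, or without W12 replicate 2, 2 genes were higher and 2 lower, and without W6 replicate 1 there were 6 higher and 3 lower.

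Cell cycle genes were lower where they were called. Of 28 S phase genes 5 were lower and of 28 G2 and mitosis genes 5 were lower, 3 of each under all 3 scalings, and none was higher, which is 17.9% of each list against 13.5% of all genes. With both D0 libraries left out of the fit 13 S phase genes were lower, beside 2231 of the 13110 genes, and 5 mitosis genes. Medians were −0.48 and −0.35. Uhrf1, which maintains DNA methylation at replication, fell from 81.1 and 66.2 TPM to 21.8 and 29.4 TPM, and Foxm1, a transcription factor of mitotic genes, from 30.7 and 19 TPM to 6.68 and 7.42 TPM (−1.65, SE 0.25, adjusted P = 0.00344). Mki67 and Top2a, the usual proliferation markers, did not pass, with 23.4 and 29.1 TPM against 21.3 and 17.8 TPM for Mki67. Without W12 replicate 1 no S phase gene and 1 mitosis gene passed the threshold, and without W6 replicate 1 there were 1 and 2. The S phase count was 2 without W6 replicate 2 and 3 without W12 replicate 2. Ccnd2, the D cyclin that links growth signals to the cycle (chromosome 6, 127125162 to 127152193), fell from 764 and 504 TPM to 168 and 167 TPM (−1.88, SE 0.21, adjusted P = 0.000824), while Ccnd1 overlapped with 29.5 and 65.8 TPM against 39.8 and 48.5 TPM. Trp53, the p53 gene, fell from 89.6 and 126 TPM to 47.7 and 60.8 TPM, and its target Cdkn1a, a cell cycle inhibitor, had 528 and 300.3 TPM against 419 and 459 TPM (adjusted P = 0.771). Over 23 D cyclin, inhibitor and p53 target genes tested, 4 were higher (17.4%, against 6.66% of all genes) and 3 lower (13.0%, near the 13.5% of all genes), with 0 higher and 1 lower without W12 replicate 1 and 1 higher and 2 lower without W12 replicate 2. Without W6 replicate 1 there was 1 higher.

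Growth factor genes were called in both directions. In the EGF family 4 of 11 were higher and 2 lower (36.4% and 18.2%, against 6.66% and 13.5% of all genes), or 2 and 2 with the replicate block. Areg, amphiregulin, rose from 26.8 and 18.0 TPM to 72.1 and 88.8 TPM (1.82, SE 0.37, adjusted P = 0.0125), and the ligand gene Epgn from 17.7 and 24.7 TPM to 47.9 and 62.2 TPM. The receptor gene Erbb2 fell from 56.8 and 37.0 TPM to 12.6 and 17.0 TPM (−1.59, SE 0.29, adjusted P = 0.00785) and Lrig1, an inhibitor of ERBB receptors, from 121 and 36.8 TPM to 11.7 and 13.7 TPM. Egfr itself had 22.2 and 31.1 TPM at W6 and 26.7 and 29.4 TPM at W12, within the W6 range. Without W12 replicate 1, 1 gene was higher and none lower, without W12 replicate 2 none was higher and 2 lower, and without W6 replicate 2 there were 2 higher and 3 lower. Of 27 TGF-beta and BMP genes, 8 were higher (29.6%, against 6.66% of all genes) and 5 lower (18.5%, against 13.5%). All 8 higher and 3 of the 5 lower held under all 3 scalings, and with the length and GC correction 2 were lower. Inhba, the activin A subunit, which is induced in wounds, rose from 1.78 and 6.47 TPM to 64.7 and 45.7 TPM (3.60, SE 0.40, adjusted P = 0.000765), and Skil and Id3, targets of these signals, rose by 1.63 and 1.92. Ltbp3, which holds latent TGF-beta in the matrix, fell from 25.6 and 28.9 TPM to 6.26 and 10.8 TPM. The count of higher genes was 3 without W12 replicate 1, 3 without W12 replicate 2 and 5 without W6 replicate 1, and that of lower genes 1 without W12 replicate 1 and 3 without W6 replicate 1.

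Abundant transcripts changed outside these lists as well. Apoe, a lipid carrier, fell from 29660 and 18221 TPM to 7930 and 8384 TPM (−1.51, SE 0.25, adjusted P = 0.00558), with 15612 and 15399.7 TPM at D0. Klf15, a metabolic and glucocorticoid-responsive factor, fell from 13.8 and 13.3 TPM to 1.38 and 1.63 TPM (−2.54, SE 0.21, adjusted P = 0.000128). Both W6 libraries were above both W12 libraries in each gene. The metallothionein genes Mt1 and Mt2, metal-binding stress proteins, rose from 1940 and 1891 TPM to 5833 and 5163 TPM and from 818 and 1048 TPM to 3156 and 2755 TPM. Ly6a, the sorting antigen that was required to be high, rose from 275 and 421 TPM to 1168 and 1109 TPM (1.74, SE 0.23, adjusted P = 0.00184). It had 756 and 565 TPM at D0, so both W6 libraries were below both D0 and both W12 libraries. Ackr1, a chemokine receptor of venules that passed the filter only through W12, was listed at 0.326 and 0 TPM at W6 and at 98.5 and 191 TPM at W12. Aldh3a1, an aldehyde dehydrogenase regulated by NRF2, fell from 426 and 307 TPM to 60.8 and 65.5 TPM (−2.50, SE 0.26, adjusted P = 0.000479), and of 21 NRF2 targets tested 2 were higher and 4 lower (9.52% and 19%, against 6.66% and 13.5% of all genes), or 3 and 3 with quantile normalization. In TPM those numbers were 0 and 2 without W12 replicate 1, and the higher genes numbered 4 without W6 replicate 1 and 1 without W12 replicate 2. Mir6236, a gene model and not the mature miRNA, fell from 757 and 493 TPM to 113 and 57.7 TPM.

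**Figure D5:**
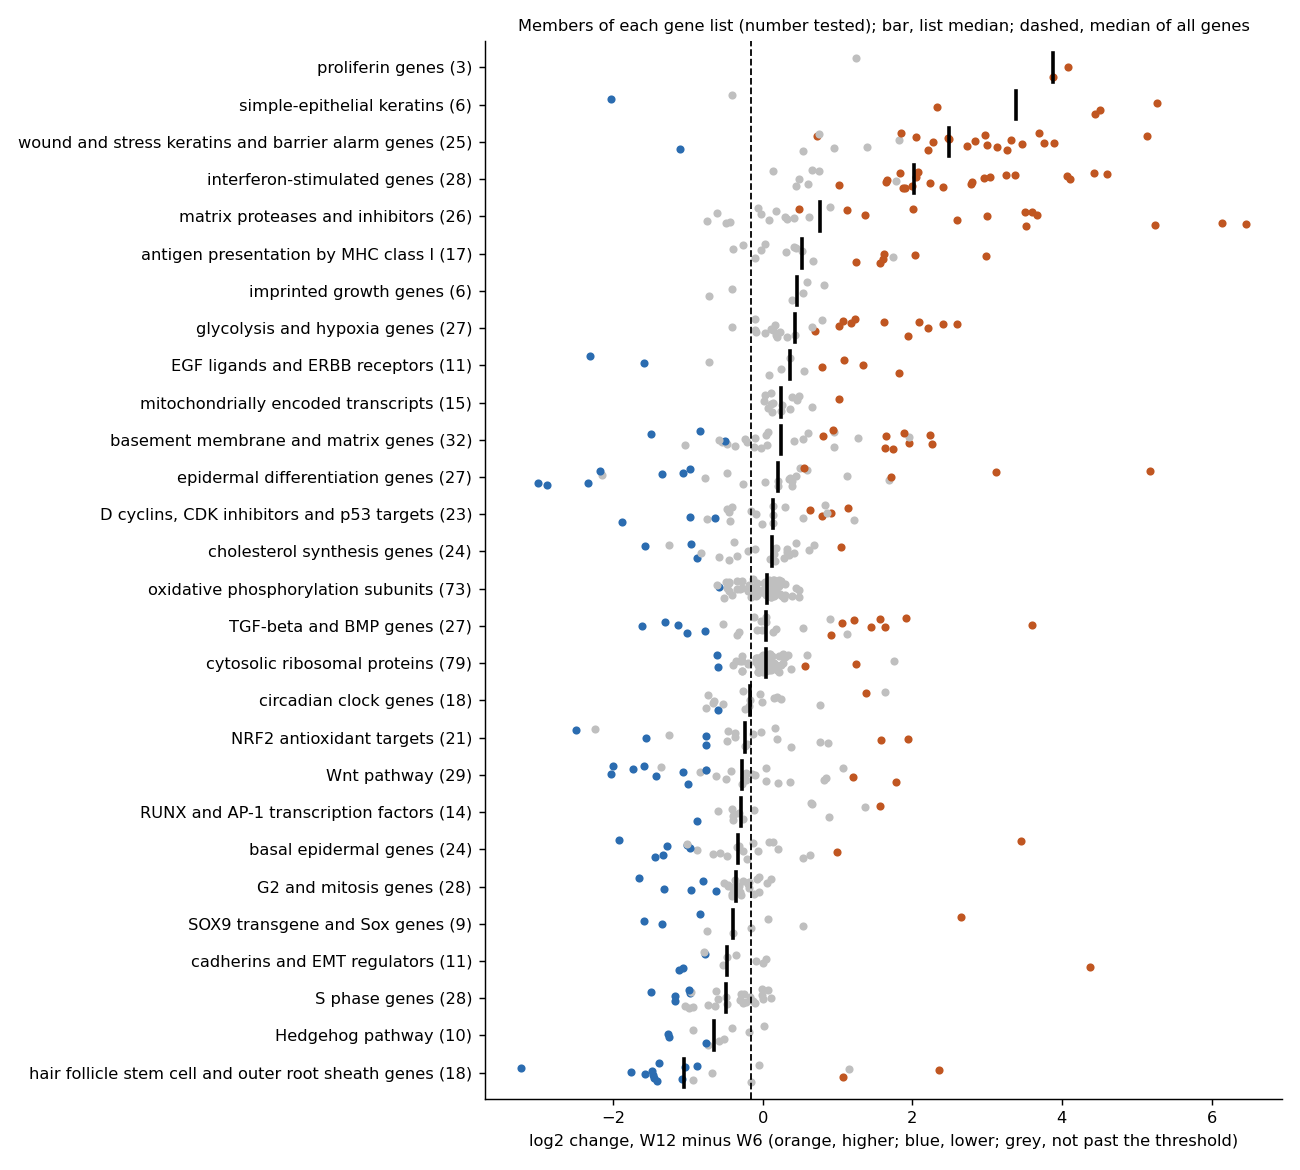
Change from W6 to W12 (log2 of TPM + 1, horizontal axis) of each tested member (dots) of 28 gene lists (vertical axis), with the median of each list as a bar and the median of all genes, −0.16, as a dashed line. Wound, interferon and simple-keratin lists have medians of 2.49, 2.02 and 3.39, and the HFSC list has −1.05.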

How the data were processed

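RNA was measured by RNA-seq of sorted EpdSCs in 10 libraries from 5 timepoints (D0, W1, W2, W6, W12), 2 libraries each, and groups were taken from the sample labels. The authors trimmed reads, quantified transcripts with Salmon 1.4.0 against a GENCODE index of GRCm38 that holds the transgene as its own entry, and summed them to genes with Tximport 1.12.3 (versions per the submitters' processing notes). The deposited values are TPM, with the same sum in every library. TPM carry no depth, so no counting error, smallest detectable level or count test could be given, and the precision rests on 2 libraries per timepoint. Where labels do not name separate grafts, P values measure only the spread between these libraries.

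Genes whose mean over the 10 libraries reached 1 TPM were tested on log2(TPM + 1) with limma 3.58.1 in R 4.3.3, fitting 5 timepoint means to all 10 libraries, which share one estimate of spread (eBayes with a trend of variance on level). P values were adjusted by Benjamini-Hochberg over all 13110 genes, with a threshold of 0.05. The study used a DESeq2 Wald test on counts, which TPM do not permit. The step was tested on simulated data.

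The members and gene lists were chosen with earlier results of these data known. Lists, written from the paper and general knowledge, are described by counts and medians with no test. The text names MYC-SOX9 and Sox9, the first 3 genes of each list and up to 4 called members with the largest change. It also names the 10 largest rises and falls among genes past the threshold under all 3 scalings with a mean of at least 10 TPM in the higher group, and the 6 largest rises and falls in mean TPM, predicted genes and pseudogenes left out. Not every gene the rule allows is printed, and some results are not reported here. Members named only to complete a count, and single markers of other cells, were chosen after their values were seen. GENCODE M21 on GRCm38 gave the gene positions, and promoter windows are RefSeq's on GRCm38.p6. Python 3.11.15, pandas 2.3.3 and matplotlib 3.10.9 were used for the other steps.

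Alternatives were another pseudocount (0.1), all genes above 0 TPM, a minimum mean of 5 TPM, quantile normalization, median-ratio scaling, no trend in eBayes, 4 or 8 libraries fitted, a minimum absolute log2 change of 1, no predicted genes, a length and GC correction, the replicate block and each replicate left out. The authors' table of their embryonic placode comparison (means, fold changes and P values) was not used here.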

Additional observations from a re-analysis of the deposited data

How the results depend on the processing

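Depth is unknown and each timepoint has 2 libraries, so the counts rest on the spread that all libraries share. With only the 4 libraries of W6 and W12 in the fit, 887 genes differed (483 higher, 404 lower), 441 higher and 109 lower under all 3 scalings. Leaving out 1 library gave 761 to 2846 genes, 446 to 1003 of them higher and 291 to 1843 lower, and 417 to 985 higher and 117 to 1398 lower under all 3 scalings. The lowest totals came without W12 replicate 1 or 2 (761 and 1285) and the highest without W6 replicate 2, and a timepoint left with 1 library was assumed to vary like the others. Median-ratio scaling gave 845 lower genes. An absolute log2 change of at least 1 left 1390 genes, 735 lower and 390 lower under all 3 scalings. A mean of at least 5 TPM left 545 higher genes, 520 under all 3 scalings, and all genes with a TPM above 0 gave 439 lower under all 3. The deviations of same-numbered W6 and W12 libraries had a correlation of −0.115 across genes, so the numbers were not taken to pair the samples. The replicate block gave 2163 genes (531 lower under all 3 scalings), or 963 lower with the length and GC correction. Crossing the W6 numbers in the block, chosen after seeing the data, gave 2666 genes, 838 higher and 1828 lower. The other alternatives stayed within 1.5 times each count.

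Of 3465 values of the 205 genes under the rule and the alternatives, 3114 stayed on their side of the threshold, 324 lost the threshold (152 of them when 1 library was left out) and 26 gained it. Of the 3114, 52 had the other sign without passing in either case. In 1 value the sign changed and the threshold was passed. That was Gpx2, 0.38 with all libraries (adjusted P = 0.716 from limma) but −0.89 without W6 replicate 2 and 1.65 without W6 replicate 1, and the cause was not tested. Of 1292 counts of list members under the alternatives, 248 moved by over 1.5 times. With only the 4 libraries of W6 and W12 in the fit, 3 matrix genes, 3 MHC class I genes and 4 TGF-beta and BMP genes were higher, and 4 Wnt, 1 Hedgehog, 1 basal and 7 HFSC genes lower. With both D0 libraries left out, 9 basal and 7 NRF2 genes were lower. With all genes above 0 TPM tested, 3 matrix, 2 MHC class I, 2 EGF family and 5 TGF-beta and BMP genes were higher. Under that setting 2 basal, 5 Wnt and 1 Hedgehog genes were lower.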

Other observations

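Several large gene groups had few calls. Of 79 cytosolic ribosomal protein genes tested, 2 were higher and 2 lower (Rpl26 and Rpl34, Rpl21 and Rps26), and the median change was 0.05 in TPM, −0.01 with quantile normalization and 0.20 with median-ratio scaling. Of 73 nuclear genes of oxidative phosphorylation 1 was lower (Uqcrc1), with a median of 0.05, and the changes of all 73 lay between −0.61 and 0.49. With a length and GC correction 7 of the 73 were lower, and with median-ratio scaling 2 were higher and none lower. With both D0 libraries left out of the fit there were 2 higher and 8 lower. Of 15 mitochondrially encoded transcripts 1 was higher (mt-Co3), and none with only the 4 libraries of W6 and W12 in the fit. These shares are below the 20.2% of all genes that differed. Of 24 cholesterol synthesis genes 1 was higher and 3 lower (4.17% and 12.5%, against 6.66% and 13.5% of all genes). Of 18 clock genes 1 was higher and 1 lower (5.56% each), and of 6 imprinted growth genes tested neither direction had a call.

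Sorting markers tested numbered 5, of which Ly6a, Cd34 and Pecam1 were higher (against 6.66% of all genes) and none lower. Pecam1 passed the filter only through W12. The sort required Ly6A and gated against the other two. Hair shaft and inner root sheath markers summed to 62.3 and 109 TPM at W6 and 40.2 and 36.9 TPM at W12. Of 6 tested only Gata3 was lower (16.7%, near the 13.5% of all genes), and none with only the 4 libraries of W6 and W12 in the fit. Gpx2, an NRF2-regulated glutathione peroxidase, had 1349 and 231 TPM at W6 and 817 and 650 TPM at W12, so the W12 libraries lay between the W6 libraries. Rps3a2, a copy of a ribosomal protein gene whose reads can be shared with its relatives, had 0.938 and 1.32 TPM at W6 and 241 and 201 TPM at W12, which is uncertain for that reason. Lrg1, a glycoprotein of vessels and inflamed tissue, had 1.1 and 1.43 TPM at W6 and 95.4 and 268 TPM at W12. Rps3a2 and Lrg1 passed the filter only through W12.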
